A study of Homo sapiens with 4 samples.

Results

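Keratins and vimentin are the chains of the intermediate filaments of the cytoplasm. The genes described here are KRT7, KRT8, KRT10, KRT15, KRT17, KRT18, KRT19, KRT80, KRT81 and VIM, taken by name as 10 of the 64253 gene rows of the count table. The rule used names alone, but the members were chosen with earlier results of these data known. Messenger RNA was sequenced from A549 cells, a human cell line established from an adenocarcinoma of the lung, transfected with a plasmid of NFATc2 (2 libraries) or of NFATc2M (2 libraries). NFATc2 is a transcription factor that enters the nucleus on calcium signals, and NFATc2M carries a deletion in the DNA binding domain. All 4 libraries came from cells kept in OPNc-CM, the conditioned medium of HEK-293 T cells that express the osteopontin isoform c, so the comparison of NFATc2 with NFATc2M asks how the transcripts differ when the factor keeps or lacks that stretch. Both groups carry a plasmid and both had the medium, and no library without a plasmid or without OPNc was analysed here. Nothing states that replicates 1 and 2 were separate cultures. Each p-value thus reflects the spread of these libraries alone, and that spread may be technical. For most members it was taken largely from all genes and not from the gene's own replicates.

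Keratins are built as pairs of a type I and a type II chain, and a chain without a partner is usually degraded. KRT8 (type II) and KRT18 (type I) form the basic pair of simple epithelia, to which KRT7 (type II) and KRT19 (type I) are added in ducts and in lung epithelium. KRT10 is a type I keratin of the upper layers of the epidermis, KRT15 and KRT17 are type I keratins of basal cells and of skin appendages, KRT80 is a type II keratin of differentiating epithelia, and KRT81 is a type II keratin of hair. VIM encodes vimentin, the type III chain of mesenchymal cells, which forms filaments on its own and is also made by many carcinoma lines. A549 cells are known to hold keratin and vimentin filaments together.

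The genes summed to 21011786 to 23527259 counts per library, and the 10 genes held 1.15% and 1.13% of them in NFATc2 replicates 1 and 2 and 1.23% and 1.14% in NFATc2M replicates 1 and 2. Genes listed as markers of A549 cells reached a summed level of 6551 to 7318 TPM, a unit in which counts are divided by the length of each gene's canonical transcript and scaled to the same sum in every library. The markers of simple epithelium reached 14.2 to 16.1 TPM in sum over 7 genes. In that list CDH1 (E-cadherin) had 210 to 265 counts per library, EPCAM had 48 to 70, ESRP1 had at most 3, and GRHL2 had 0. Of the A549 list, nearly all of the sum came from ALDH1A1, ALDH3A1, AKR1C1, AKR1C2, AKR1B10 and NQO1. The surfactant genes SFTPA1, SFTPB and SFTPC had 0, at most 4 and at most 2 counts per library. NKX2-1 had at most 1 and NAPSA had 6 to 26. Genes listed as markers of HEK-293 T cells, the source of the medium, summed to 51.3 to 61.4 TPM, of which INA had 41.7 to 51.4 TPM. Markers of leukocytes summed to at most 3.57 TPM and those of endothelium to at most 0.21 TPM. The fibroblast list summed to 10.5 to 10.8 TPM with NFATc2 and 13.5 to 15.4 TPM with NFATc2M, and 1 of its 2 tested genes, the collagen gene COL1A1, was called lower with NFATc2; the part of these genes in the results was not tested.

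On GRCh38 the members lie on 3 chromosomes. KRT80 (52168996 to 52192014), KRT7 (52232520 to 52252186), KRT81 (52285913 to 52291534), KRT8 (52897187 to 52949954) and KRT18 (52948871 to 52952906) are on chromosome 12. KRT18 is the one type I gene there and its start overlaps the 5′ end of the KRT8 locus, which lies on the other strand. KRT10 (40818117 to 40822614), KRT15 (41513745 to 41522529), KRT19 (41523617 to 41528308) and KRT17 (41619442 to 41624842) are on chromosome 17, and VIM is on chromosome 10 from 17228241 to 17237593.

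The start regions of VIM and KRT10 are shown because the 2 plasmids differ in a domain that binds DNA, and the letters GGAAA are the core to which NFAT proteins are known to bind. RefSeq's table on GRCh38.p14 matched 3 of the 10 genes, VIM, KRT8 and KRT10. The 250 bases before the start site are given 5′ to 3′ on the strand of the gene, chr10:17227991-17228240 (+) for VIM and chr17:40822615-40822864 (-) for KRT10, and capitals mark GGAAA or, for a match on the other strand, TTTCC.
VIM: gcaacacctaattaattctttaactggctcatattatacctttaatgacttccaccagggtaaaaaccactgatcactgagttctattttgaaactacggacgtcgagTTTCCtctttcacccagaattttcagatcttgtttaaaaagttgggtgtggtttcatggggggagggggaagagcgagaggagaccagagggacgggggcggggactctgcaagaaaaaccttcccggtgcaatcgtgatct
KRT10: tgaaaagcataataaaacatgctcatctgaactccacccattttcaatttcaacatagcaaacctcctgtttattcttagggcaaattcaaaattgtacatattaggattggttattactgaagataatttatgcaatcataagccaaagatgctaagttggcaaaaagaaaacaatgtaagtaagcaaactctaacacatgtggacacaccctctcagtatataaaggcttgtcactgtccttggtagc

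The VIM stretch held 1 match, on the opposite strand, and the KRT10 stretch held 0. The KRT8 entry held 1 match, but its start site lies 21393 bases upstream of the start of the canonical KRT8 transcript, so its letters are not shown. Of 35116 entries of 300 bases (250 before and 50 after the start), 61.2% held at least 1 GGAAA on either strand. A match in these letters is a description and not a binding site.

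Divided by length, the members fell into a high and a low set, with the order KRT7, KRT8, VIM and KRT81, KRT18, and then KRT19, KRT80, KRT10, KRT15 and KRT17. KRT7 had 4554 and 4796 TPM in NFATc2 replicates 1 and 2 and 5311 and 4823 TPM in NFATc2M replicates 1 and 2, which put it at rank 19 of the 56105 genes with a length. KRT8 had 2695 and 2713 TPM against 2744 and 2619 TPM. VIM had 2167 and 2437 TPM against 2168 and 2079 TPM, and KRT81 had 2114 and 1670 TPM against 2319 and 2096 TPM. The levels of VIM and KRT81 overlapped over the libraries and have no order between them, while the other neighbours in the order did not overlap in TPM. KRT18 had 1478 and 1651 TPM against 1314 and 1339 TPM, so the level of the type I chain of the basic pair stood below that of its partner KRT8 in each library with this length.

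The low set lay well apart from these genes. KRT19 had 85.0 to 110 TPM over the 4 libraries, KRT80 had 72.2 to 78.0 TPM, KRT10 had 24.4 to 45.2 TPM and KRT15 had 4.82 to 7.92 TPM. KRT17 had 1 and 0 counts with NFATc2 and 2 and 2 counts with NFATc2M, at most 0.13 TPM. In a carcinoma line of the lung, the transcripts of the hair keratin KRT81 were at the level of vimentin, and those of KRT19, a keratin of simple epithelia, were far below. These levels depend on the length chosen. With the length of all merged exons in place of the canonical transcript, an alternative chosen after seeing the data, KRT81 came first (mean 3217 TPM), followed by KRT7 (3105), VIM (1443), KRT8 (1095) and KRT18 (1043), and KRT80 (106) came before KRT19 (94.1) and KRT10 (57.7). With that length KRT18 stood above KRT8 in NFATc2 replicate 2 (ratio 1.08) and below it in the other 3 libraries.

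**Figure D1:**
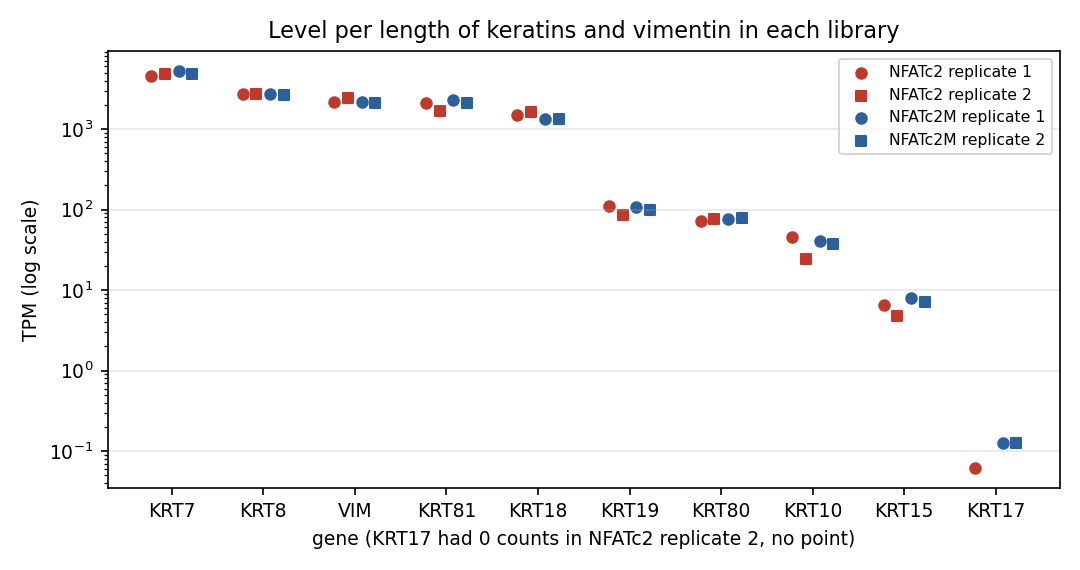
Level per length of each gene (TPM, log scale) in each library, NFATc2 in red and NFATc2M in blue, circles for replicate 1 and squares for replicate 2. The genes KRT7, KRT8, VIM, KRT81 and KRT18 sit between 1314 and 5311 TPM in all 4 libraries, KRT19 to KRT15 between 4.82 and 110 TPM, and KRT17 at most at 0.13 TPM, with no point where it had 0 counts.

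Between the groups no tested member was called, and KRT18 stood furthest above 0 and KRT15 furthest below. Of the 9 members that passed the filter on low counts, 0 were called at an adjusted p of 0.05 with edgeR's quasi-likelihood test (Benjamini-Hochberg over 17459 genes), and 0 with limma voom. DESeq2 called 0 of the 8 members to which it gave an adjusted p, all but KRT15 and KRT17. The background was 8.64% of the genes tested, 4.90% higher and 3.73% lower with NFATc2. With an unadjusted p under 0.05 from edgeR were 2 members, KRT18 and KRT81, against 23.3% of all genes tested. The groups did not overlap in CPM (counts scaled to the TMM-normalized library size) for 5 of the 9, KRT18 and VIM higher and KRT7, KRT15 and KRT80 lower with NFATc2, against 53.1% of all genes. The log2 fold changes of NFATc2 over NFATc2M ran from -0.38 to 0.25, 3 above 0 and 6 below, with a median of -0.08 beside 0.00 over all genes. The median of the members turned its sign where each library's trend with exon GC content and length was removed as an offset (0.16, or 0.03 for all genes) and without NFATc2 replicate 2 (0.03, or -0.01 for all genes). The exons of the tested members have a median GC content of 55.9%, against 48.7% over 17163 tested genes.

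**Figure D2:**
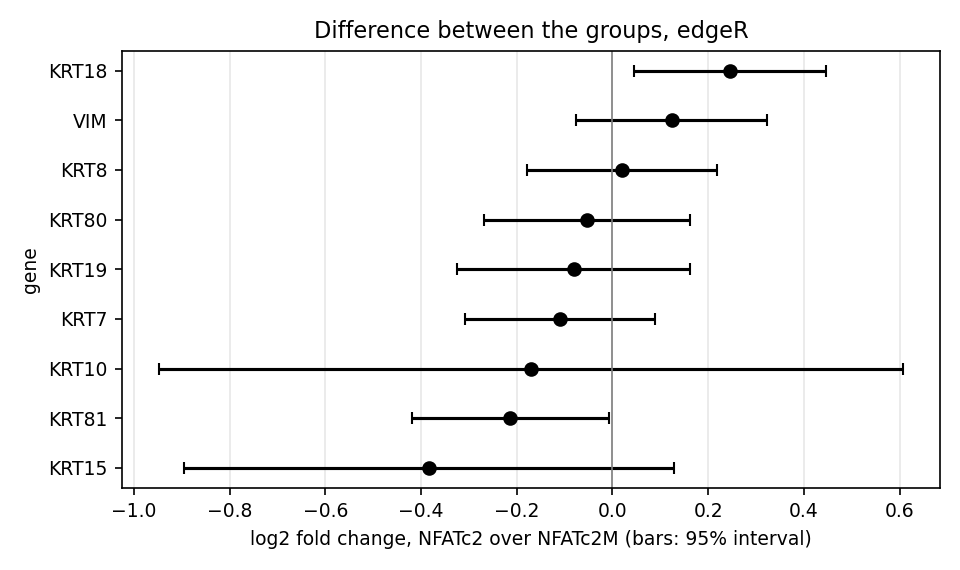
Log2 fold change of NFATc2 over NFATc2M for the 9 tested genes, with 95% intervals from edgeR. The interval of KRT18 lies above 0 (0.05 to 0.45) and that of KRT81 just below it (-0.42 to -0.01), both before adjustment over all genes, and the other 7 intervals include 0.

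KRT18, the type I partner of KRT8, had the largest positive value. It had 22202 and 26008 counts in NFATc2 replicates 1 and 2 and 19162 and 19612 counts in NFATc2M replicates 1 and 2, or 1027 and 1121 CPM against 906 and 906 CPM. Both NFATc2 libraries stood above both NFATc2M libraries, which were nearly equal. The mean was 1074 ± 65.9 CPM (SD, n = 2) with NFATc2 and 906 ± 0.32 CPM (SD, n = 2) with NFATc2M, 1.19-fold (95% interval 1.03 to 1.36). The log2 fold change was 0.25 (standard error 0.10), with a p of 0.016 before and 0.11 after adjustment in edgeR, so KRT18 did not pass. With the GC and length offset the log2 fold change was 0.43 and KRT18 was called (adjusted p = 0.0030 in edgeR), the only such member. Over all 17 alternatives it ran from 0.18 to 0.43 (adjusted p 9.7e-04 to 0.60 with the tools named), lowest without NFATc2 replicate 2.

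KRT8, its type II partner, had 51104 and 53963 counts with NFATc2 and 50521 and 48441 counts with NFATc2M. In CPM these were 2365 and 2325 against 2388 and 2238, and the groups overlapped. The fold of NFATc2 over NFATc2M was 1.01 (95% interval 0.884 to 1.16), with a log2 value of 0.02 (adjusted p = 0.94 in edgeR, standard error 0.10) whose sign turned under upper quartile and library size scaling and without NFATc2M replicate 2. It was highest with the GC and length offset, at 0.19 (adjusted p = 0.18 in edgeR, 0.019 before adjustment).

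The ratio of KRT18 to KRT8 within a library, from levels per length, does not depend on the scaling of libraries. It was 0.549 and 0.609 in NFATc2 replicates 1 and 2 and 0.479 and 0.511 in NFATc2M replicates 1 and 2, so both NFATc2 libraries were above both NFATc2M libraries. Summed over the members, the ratio of type I to type II keratins was 0.174 and 0.191 with NFATc2 and 0.141 and 0.154 with NFATc2M. In that sum KRT18 makes up nearly all of the type I level, since KRT10, KRT15, KRT17 and KRT19 together hold little. The ratio of VIM to all keratin members was 0.196 and 0.221 against 0.182 and 0.187, again without overlap. For KRT18 to KRT8 the lengths are the same in every library, so no choice of length can change the order of the groups. For the type I to type II and the VIM ratios the order was the same from plain counts and with merged exon length. With the GC and length offset the log2 fold change was 0.17 for VIM and 0.43 for KRT18. It was 0.11 for KRT7, 0.19 for KRT8 and 0.095 for KRT81, so VIM lay among the keratins. No ratio was formed with that offset, and whether the VIM ratio keeps its order there was not tested. A permutation of 2 against 2 libraries cannot give an exact two-sided p below 0.33, so the ratios carry no test. These ratios share genes with each other. In CPM the groups did not overlap for 53.1% of all genes tested, and no such share was formed for ratios. Among further ratios, KRT18 to KRT7 also did not overlap. KRT81 to KRT7 overlapped, at 0.464 and 0.348 with NFATc2 against 0.437 and 0.435 with NFATc2M.

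**Figure D3:**
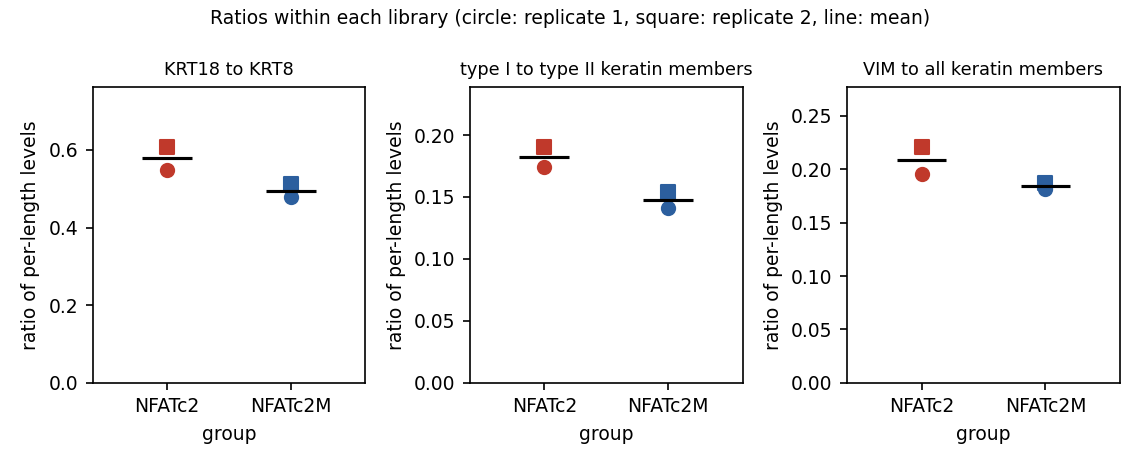
Ratios of levels per length within each library, for KRT18 to KRT8, type I to type II members, and VIM to all keratin members, with circles for replicate 1, squares for replicate 2 and lines for the mean of each group. Both NFATc2 libraries (0.549 and 0.609 for KRT18 to KRT8) lie above both NFATc2M libraries (0.479 and 0.511) in each panel. The panels share genes, and in CPM the groups did not overlap for 53.1% of all genes tested.

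KRT7, the most abundant member, had 78659 and 86904 counts with NFATc2 and 89080 and 81251 counts with NFATc2M. The values were 3640 and 3744 CPM against 4211 and 3754 CPM, so that the groups did not overlap, but NFATc2 replicate 2 and NFATc2M replicate 2 differed by less than the replicates of either group did. The fold was 0.927 (95% interval 0.808 to 1.06), with a log2 value of -0.11 (adjusted p = 0.55 in edgeR, standard error 0.10). The sign turned with the GC and length offset (0.11), and the value was -0.03 without NFATc2M replicate 1 and -0.19 without NFATc2M replicate 2. The ratio of KRT7 to KRT8 was 1.69 and 1.77 with NFATc2 against 1.94 and 1.84 with NFATc2M. Of the length-scaled level summed over the 10 genes, KRT7 made up 34.4% to 37.7% and KRT8 made up 19.5% to 20.4%.

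KRT19, which pairs with KRT7 and KRT8 in simple epithelia, had 1631 and 1317 counts with NFATc2 and 1558 and 1431 counts with NFATc2M. The groups overlapped at 66.1 ± 13.2 CPM and 69.9 ± 5.32 CPM (SD, n = 2 each). The log2 fold change was -0.08 (95% interval -0.32 to 0.16, adjusted p = 0.75 in edgeR) and turned its sign with the offset (0.19) and without NFATc2 replicate 2 (0.10).

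VIM, whose start region held 1 match to the NFAT core letters, had 49608 and 58539 counts with NFATc2 and 48192 and 46422 counts with NFATc2M. In CPM it had 2295 and 2522 with NFATc2 and 2278 and 2145 with NFATc2M. NFATc2 replicate 2 stood apart from the other libraries, and NFATc2 replicate 1 was close to NFATc2M replicate 1. The means were 2409 ± 160 CPM and 2211 ± 94.0 CPM (SD, n = 2 each), and the log2 fold change was 0.12 (95% interval -0.08 to 0.32, adjusted p = 0.49 in edgeR, standard error 0.10). The value was 0.05 without NFATc2 replicate 2 and at most 0.19 over the 17 alternatives, and it was called under none of them (adjusted p 0.25 to 0.92).

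KRT81, the hair keratin, had 43351 and 35924 counts with NFATc2 and 46172 and 41914 counts with NFATc2M. The values were 2006 and 1548 CPM against 2182 and 1937 CPM, and the groups overlapped, since NFATc2 replicate 1 lay between the NFATc2M libraries. The log2 fold change was -0.21 (standard error 0.10) with a p of 0.043 before and 0.20 after adjustment in edgeR. It was -0.04 without NFATc2 replicate 2, the lowest library, -0.41 (adjusted p = 0.070) without NFATc2 replicate 1 and 0.10 with the offset. KRT81 has the highest exon GC content of the members (62.3%).

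KRT80 differed little between libraries, with 2973 and 3294 counts with NFATc2 and 3074 and 3131 counts with NFATc2M. Its means were 140 ± 3.08 CPM and 145 ± 0.44 CPM (SD, n = 2 each), lower with NFATc2 in both libraries by a log2 value of -0.05 (95% interval -0.27 to 0.16, adjusted p = 0.82 in edgeR). The sign turned with the offset (0.16).

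KRT10 had the widest interval of the tested members with the robust estimation used here. Without that setting its standard error was 0.165, below 0.255 for KRT15. KRT10 had 1030 and 582 counts in NFATc2 replicates 1 and 2 and 907 and 841 counts in NFATc2M replicates 1 and 2. The NFATc2 libraries thus held both the highest and the lowest value. The log2 fold change of -0.17 (adjusted p = 0.81 in edgeR, standard error 0.31) had an interval from -0.95 to 0.61. Without NFATc2 replicate 1 it was -0.70 and called (adjusted p = 0.018 in edgeR), and without NFATc2 replicate 2 it was 0.22 and not called (adjusted p = 0.62). No direction can be given for KRT10 from these libraries.

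KRT15 had 120 and 92 counts with NFATc2 and 140 and 125 counts with NFATc2M. Both NFATc2 libraries were below both NFATc2M libraries, with a log2 fold change of -0.38 (95% interval -0.89 to 0.13, adjusted p = 0.38 in edgeR), and the wide interval belongs to a gene of low count. It was -0.16 without NFATc2 replicate 2 and -0.64 without NFATc2 replicate 1, and was called in neither case (adjusted p = 0.87 and 0.26 in edgeR). KRT17, known for its rise in wounded and basal epithelium, did not reach the filter. Its ratio of NFATc2 to NFATc2M, scaled by depth, was 0.24 and its exact 95% interval, which reflects counting error alone, ran from 0.0048 to 2.41, and no difference was detectable at this depth.

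The libraries differed in how often they held an extreme value, over all genes tested as well as among the members. NFATc2 replicate 2 had the highest CPM of the 4 libraries for KRT18 and VIM and the lowest for KRT10, KRT15, KRT19 and KRT81, 6 of the 9 tested members, beside 55.5% of all genes tested with an extreme there. NFATc2M replicate 1 had the highest value for 5 members and the lowest for 1, beside 64.9% of all genes. NFATc2 replicate 1 was extreme for 4 members, beside 46.9% of all genes, and NFATc2M replicate 2 for 2, beside 32.7%. These counts of 9 members were not far from the shares of all genes and show no trait of the members. What sets these libraries apart was not tested. In bulk RNA, fewer cells that hold a transcript and less of it per cell cannot be told apart.

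**Figure D4:**
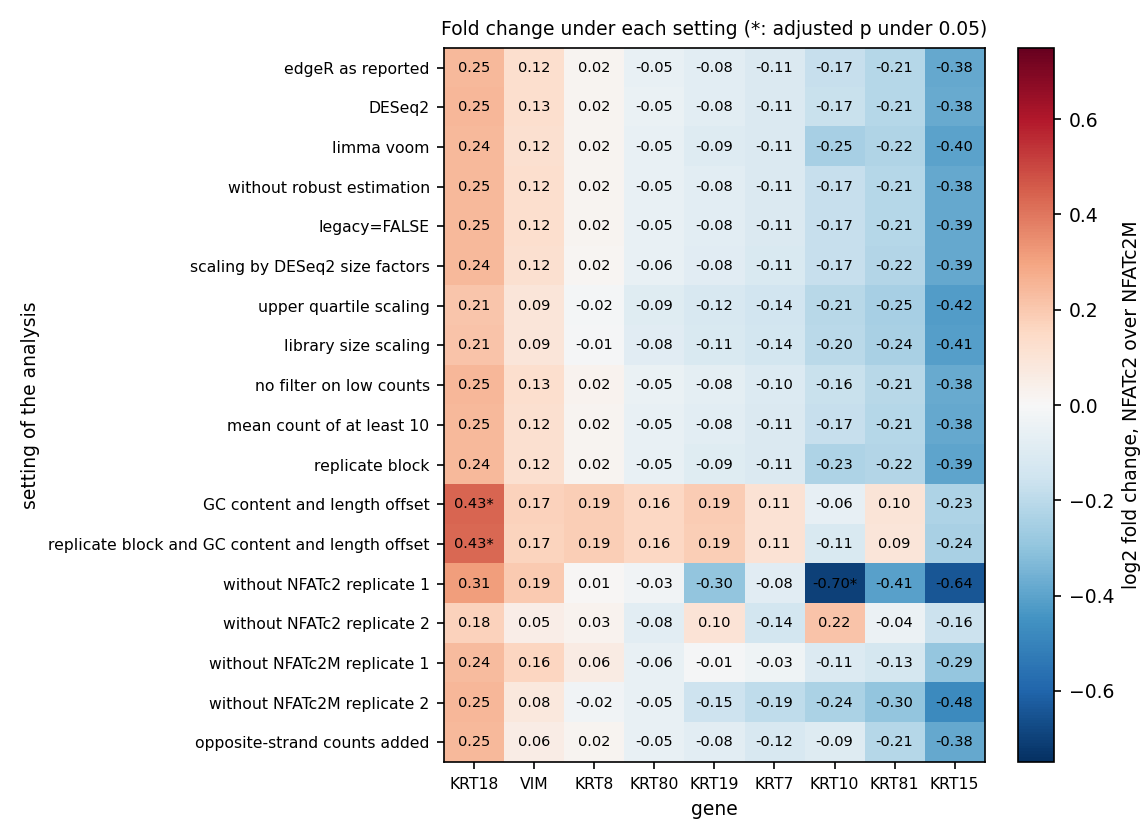
Log2 fold change of NFATc2 over NFATc2M (colour and number) for each tested gene (columns) under each setting of the analysis (rows), with an asterisk at an adjusted p under 0.05. The value of KRT18 is positive in every row (0.18 to 0.43) and is called only with the GC content and length offset, and that of KRT10 is called only without NFATc2 replicate 1 (-0.70).

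Several members share exonic bases with a gene on the other strand. The sources do not say whether the libraries kept the strand of the RNA or whether reads were counted by strand. Reads of 1 such partner may therefore be counted in the other. In each library HTSeq assigned 1.02 to 1.04 reads to no gene for each read counted in a gene. How much of the counts of the opposite-strand genes below comes from reads of the members was not tested. The fold changes given for these genes may thus in part be those of the members. KRT8 and KRT18 share 525 exonic bases on opposite strands, 17.1% of the exons of KRT18 and 7.63% of those of KRT8. KRT7-AS, a long noncoding gene inside KRT7 (chromosome 12, 52245048 to 52247448), had 26.0% to 27.9% of the KRT7 count, with 20432 and 23398 counts with NFATc2 and 24835 and 21966 counts with NFATc2M. Its log2 fold change was -0.16 (adjusted p = 0.33 in edgeR, standard error 0.10), beside -0.11 for KRT7.

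VIM overlaps VIM-AS1 (chromosome 10, 17214239 to 17230018), which had 20801 and 20964 counts with NFATc2 and 25056 and 20714 counts with NFATc2M, or 35.8% to 52.0% of the VIM count. VIM-AS1 had a log2 fold change of -0.20 (adjusted p = 0.22 in edgeR), while VIM had 0.12. A second long noncoding gene opposite VIM, ENSG00000234961, shares 87.7% of its exons with VIM. It had 15395 and 20651 counts against 15079 and 14939 counts, or 31.0% to 35.3% of the VIM count. Its log2 fold change was 0.19 (adjusted p = 0.25 in edgeR), with NFATc2 replicate 2 highest as for VIM. KRT10-AS1 shares 61 exonic bases with KRT10 and had 188 to 242 counts (log2 fold change 0.20, adjusted p = 0.61 in edgeR). With the counts of these partners added to KRT7, VIM and KRT10, an alternative chosen after seeing the data, the log2 fold changes were -0.12, 0.06 and -0.09, and 0 members were called. The whole count of each partner was added, not that of the shared bases alone. Those bases were 16.7% of the exons of KRT7-AS, 30.9% of VIM-AS1 and 2.0% of KRT10-AS1.

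Of 56 other keratin genes that are not pseudogenes, 29 had no count, 22 had a count but did not reach the filter, and 5 were tested. All 5 are known as hair keratins: KRT86, KRT83 and KRT85 of type II, and KRT34 and KRT32 of type I. KRT86, a close paralog of KRT81 whose annotated span (chromosome 12, 52249300 to 52309163) includes KRT81 on the other strand, was the 1 that was called. It had 1308 and 1472 counts with NFATc2 and 1931 and 1537 counts with NFATc2M, or 60.5 and 63.4 CPM against 91.3 and 71.0 CPM, and both NFATc2 libraries were lower. The log2 fold change was -0.39 (adjusted p = 0.027 in edgeR, standard error 0.12). The call was lost with DESeq2 (-0.39, adjusted p = 0.055), with the GC and length offset (-0.09, adjusted p = 0.69) and without NFATc2 replicate 1 (adjusted p = 0.23), NFATc2 replicate 2 (0.17) or NFATc2M replicate 1 (0.61). Reads that match both KRT81 and KRT86 may be missing from both counts or be assigned to the wrong copy. This was not tested, so both values are uncertain.

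The other 4 had few counts and were not called, with log2 fold changes of 0.27 for KRT83 (adjusted p = 0.78), -1.06 for KRT85 (0.39), -0.37 for KRT34 (0.64) and -0.36 for KRT32 (0.84) in edgeR. KRT85 had 7 and 8 counts against 18 and 12, and KRT32 had 1 and 13 against 11 and 6. Chosen after their values were seen, KRT71 and KRT5 had counts with NFATc2M alone, 93 and 0 for KRT71 and 33 and 3 for KRT5, and both stayed below the filter. Of 154 keratin pseudogenes, 51 had a count, most of these being copies of KRT8 or KRT18, 6 were tested and 0 were called by edgeR, and reads of KRT8 and KRT18 that also match such copies may be missing from their counts.

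Among the linkers that anchor or cross-link these filaments (desmosome and plakin genes), 18 of 23 were tested. With NFATc2 0 were called higher and 1 lower, or 5.56%, beside 8.64% of all genes tested. The median log2 fold change of the linkers was 0.10. The gene called was EVPL (envoplakin, a plakin of the cornified envelope), with 1319 and 1254 counts against 1803 and 1595 counts. Its log2 fold change was -0.47 (adjusted p = 0.0065 in edgeR, standard error 0.12), and its call was lost with the offset (-0.17, adjusted p = 0.33) and without NFATc2 replicate 2 or NFATc2M replicate 1 (adjusted p = 0.24 and 0.27). DESeq2 and limma voom called 2 of these genes lower. PLEC, the plectin gene, which was chosen after its values were seen, had 51386 and 56908 counts against 66013 and 60175 counts and a log2 fold change of -0.29 (adjusted p = 0.052 in edgeR), just outside the threshold.

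Of the genes that act on keratin or vimentin filaments (kinases, phosphatases, chaperones, proteases and adaptors), 36 of 36 were tested. With NFATc2 8 were called higher and 0 lower, or 22.2%, with a median log2 fold change of 0.10. Over all genes tested 4.90% were called higher and 3.73% lower. The list was chosen with earlier results of these data known, so its share is a description. YWHAZ, an adaptor of the family that binds phosphorylated keratin 18 and vimentin, had 20729 and 22060 counts with NFATc2 and 12259 and 16196 counts with NFATc2M (log2 fold change 0.52, adjusted p = 2.7e-04 in edgeR, standard error 0.10). YWHAB, of the same family, had 6892 and 7669 counts against 4638 and 5044 counts (0.52, adjusted p = 2.9e-04). PAK2, a kinase that phosphorylates vimentin, had 2301 and 2454 counts against 1445 and 1718 counts (0.52, adjusted p = 0.0011). CDK1, the mitotic kinase that acts on vimentin, had 1367 and 1447 counts against 815 and 1070 counts (0.51, adjusted p = 0.0046). In each of these 4 genes both NFATc2 libraries were above both NFATc2M libraries, and NFATc2M replicate 1 was the lowest. The other 4 called were ROCK2, YWHAE, PPP2CA and YWHAG, named after their values were seen.

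These 8 calls depended on the setting. Their exons have a median GC content of 41.3%, against 49.1% in the list. With the GC and length offset 4 of the 8 were still called (YWHAZ, YWHAB, YWHAE and YWHAG), among 8 called higher in the list. Without NFATc2M replicate 1, 0 of the 8 were called, without NFATc2 replicate 1 there were 4, without NFATc2 replicate 2 there were 3, and without NFATc2M replicate 2 there were 8. Without NFATc2M replicate 1 the genes called higher fell from 856 to 9 among all genes tested, and the log2 fold changes of the 8 were all above 0, from 0.30 (YWHAE) to 0.47 (YWHAB). Beside these, the log2 fold change was 0.25 for KRT18 and 0.12 for VIM, neither of which was called.

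Genes of the epithelial state and of the mesenchymal state, between which the balance of keratins and vimentin is known to shift, were mostly not called. Of 22 tested epithelial genes of 32, 1 was called higher and 1 lower (9.09%, beside 8.64% of all genes tested). Their median log2 fold change was -0.02. TJP1, a scaffold of tight junctions, had 6855 and 8134 counts against 5286 and 5930 counts (0.35, adjusted p = 0.020 in edgeR), and SPINT2, an epithelial protease inhibitor, had 7315 and 7024 counts against 9284 and 8883 counts (-0.41, adjusted p = 0.0055). Both calls were lost with the offset and without NFATc2 replicate 2 or NFATc2M replicate 1, and that of TJP1 also without NFATc2 replicate 1. Of 23 tested mesenchymal genes of 28, 0 were called by edgeR, DESeq2 or limma voom, and 2 had an unadjusted p under 0.05 in edgeR, with a median log2 fold change of -0.01. DESeq2 gave an adjusted p for 14 of these 23, and with the GC and length offset edgeR called 1 higher, the receptor kinase gene AXL (0.32, adjusted p = 0.017), named after its value was seen. TGFBI, a matrix protein induced by TGF-beta and taken for its high count, had a log2 fold change of 0.07 (adjusted p = 0.72 in edgeR). The 2 genes with an unadjusted p under 0.05, named after their values were seen, were ZEB1 (0.35, adjusted p = 0.11) and CDH2 (0.26, adjusted p = 0.15), a repressor of epithelial genes and N-cadherin.

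The other intermediate filament genes, with the lamins of the nucleus among them, gave 14 tested of 17 and 0 called by edgeR, DESeq2 or limma voom. In edgeR 3 had an unadjusted p under 0.05, and the median log2 fold change was -0.11. DESeq2 gave an adjusted p for 7 of the 14. With the GC and length offset edgeR called LMNB1, another B-type lamin, higher (0.31, adjusted p = 0.033), and with the replicate block and the offset LMNB1 and IFFO2 (2 genes), named after their values were seen. LMNA, the lamin A/C gene, had 12028 and 13178 counts against 13007 and 12198 counts (-0.07, adjusted p = 0.75), and LMNB2, a B-type lamin, had 6476 and 6048 counts against 6789 and 6563 counts (-0.16, adjusted p = 0.38).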

How the data were processed

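Per the labels and the study's methods, poly(A) RNA was sequenced in read pairs, and the authors used HISAT2 on GRCh38, SAMtools 1.18 and, for the number of reads per Ensembl gene, HTSeq 0.11.2. These deposited gene counts are whole numbers and were not normalized. Summary categories of HTSeq (5 rows, 56.4% to 57.4% of each library) and 4 unnamed value columns that repeat the counts with the group order exchanged were left out, so directions rest on the column names.

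The test was that of edgeR 4.0.16 in R 4.3.3 (filterByExpr, TMM, robust glmQLFit, no block), Benjamini-Hochberg adjusted over 17459 genes, and called at 0.05. It shares the spread over genes, with 158.7 degrees of freedom for KRT18 and 5.23 for KRT10. Alternatives were DESeq2 1.42.0, limma 3.58.1 voom, other scaling, filters and thresholds, a replicate block, a GC and length offset (spline with 5 degrees of freedom) and each library left out. Lengths, GC content and positions come from GENCODE on GRCh38. Named are all members, the genes overlapping them, other tested keratins, and from each list up to 4 called genes of smallest p (otherwise the 2 of highest count); some picks are not reported here. The members and lists were chosen with earlier results of these data known. Figures were drawn with matplotlib 3.10.9.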

Additional observations from a re-analysis of the deposited data

How the results depend on the processing

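Over 17 alternatives for the 9 tested members (152 values with an adjusted p, DESeq2 giving none for KRT15), 136 kept direction and side of the threshold, 13 turned sign and 3 were newly called. Members called higher numbered 1 (KRT18) with the GC and length offset and 1 with the replicate block and that offset (log2 fold change 0.43, adjusted p = 9.7e-04 in edgeR). Members called lower ranged from 0 to 1 when a library was left out. With these 2 offsets KRT7 turned to 0.11 and 0.11, KRT19 to 0.19 and 0.19, KRT80 to 0.16 and 0.16, and KRT81 to 0.095 and 0.089. KRT8 turned to -0.016 with upper quartile and -0.012 with library size scaling. With a library left out, KRT8 ran from -0.025 to 0.060, KRT10 from -0.70 to 0.22, KRT19 from -0.30 to 0.10 and KRT32 from -2.96 to 0.49. Of all genes, 556 were called higher with library size scaling (707 lower), 384 with the offset, 481 with block and offset, 321 at an adjusted p of 0.01 and 1299 at 0.1, and 9 to 1273 with a library left out, fewest without NFATc2M replicate 1. Called lower were 407 with DESeq2, 215 with the offset, 271 with block and offset, 270 at 0.01 and 1033 at 0.1, and 64 to 690 with a library left out. Upper quartile scaling gave 662 higher and 864 lower.

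The groups share replicate numbers, and deviations of same-numbered libraries correlated at 0.053 over 17459 genes. With 2 libraries per group, this 1 value cannot decide whether same-numbered libraries were handled together. The replicate block gave 1022 genes higher and 737 lower, against 856 and 652 without it, with 0 members called. Where a library is left out, the spread of the single one remaining in the group is taken from the other group. The merged exon length and the added opposite-strand counts were chosen after seeing the data. With 2 libraries per group, intervals of KRT10 and KRT15 leave room for changes over 1.5-fold, and KRT17 is too low to compare.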
